A study of Mus musculus with 3 samples.

Results

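Solute carriers are membrane proteins that move nutrients, ions, metals, vitamins and waste products across the plasma membrane and the membranes of organelles, most by facilitated diffusion or by coupling to a sodium or proton gradient. In the mouse they carry symbols that begin with Slc and a family number, or with Slco for the organic anion transporters, and members of a family usually share a class of substrate. In early embryos and embryoid bodies the absorptive visceral endoderm, cardiomyocytes, blood cells and dividing epiblast-like cells each use characteristic sets of them. The genes described here are the genes of that kind that were well above background in 1 of the 2 genotype channels on all 3 arrays, each read at its brightest probe, without Slc4a1, Slc8a1, Slc25a4, Slc2a1, Slc2a3, Slc16a3, Slc22a18 and Slc38a4. They came to 279 of the 19802 genes tested. The gene table held 399 such symbols, of which 389 had a named probe on the array and 381 remained without the 8 left out, so 102 were too dim or were measured on a single array.

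The samples were 3 arrays of 2 colours, each carrying RNA of Hopx-/- (null) and of Hopx+/- (heterozygous) mouse embryoid bodies after 8 days of differentiation towards heart cells. The protein HOPX has a homeodomain that does not bind DNA itself and is made in cardiac progenitors. Both genotypes were grown from embryonic stem cells derived from blastocysts on STO feeder cells with a MEK1 inhibitor, kept on inactivated fibroblasts, aggregated in hanging drops, and plated in a serum-free medium with FGF10 (12.5 ng/ml), bFGF (10 ng/ml), VEGF (5 ng/ml), ascorbic acid (1 mM) and Glutamax. The comparator was therefore the heterozygote, with no Hopx+/+ culture, and the labels give neither the number of stem cell lines per genotype nor the construction of the allele. The series text calls the 3 pairs biological replicates, without saying whether they were separate lines or separate differentiations, and a p-value measures only the spread between them. Whole embryoid bodies were lysed, so a lower signal can come from fewer cells of a type or from less RNA per cell, and these cannot be told apart.

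All ratios are log2 values of null over heterozygous, so a value of 1 is a doubling in null, and errors are the moderated standard errors of limma over the arrays. The labels place null RNA in the Cy5 channel on all 3 arrays, but the ratios of replicate 3 ran against those of replicates 1 and 2 (r = -0.88 with each over spots, against 0.93 between replicates 1 and 2). The authors' deposited table has the sign of replicate 3 turned, with slopes on the scanner ratios of 0.945, 0.952 and -0.947, and the turned sign was used here. The direction of that array is thus not settled by the labels: with replicate 3 read as labelled, 0 of the 279 genes passed the test in limma (1 had an unadjusted p under 0.05), and without replicate 3 the count was 71 higher and 106 lower of 277. Hopx itself had ratios of -2.98, -2.97 and -3.45 (mean -3.13 ± 0.11), although where its probe lies relative to the mutation was not given. Between 61.9% and 72.9% of the 43020 spots of a channel were well above background.

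Of the 279 solute carrier genes, 73 were higher and 106 lower in null at an adjusted p under 0.05 in limma, and 100 did not pass. Among all genes tested the test called 60.3% in either direction, 30.2% higher and 30.1% lower, and the corresponding shares of the solute carriers were 26.2% and 38.0%. The median ratio of the solute carriers was -0.09 against 0.00 for all genes, and the ratios ran from -4.31 to 3.65. A change of at least 2-fold was called for 11 genes upward and 22 downward, against 4.87% and 6.03% of all genes. Among the 244 solute carriers above background in both channels, 61 were higher and 95 lower, against 29.8% and 30.8% of the 18038 genes of that kind. Another 17 members passed the filter in the null channel alone and 18 in the heterozygous channel alone. That filter selects for a direction, so their calls are no independent support for it.

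The split between higher and lower calls depended on the dye normalization. Of the members called, 40.8% were higher with loess and 63.3% with median centring alone (100 higher, 58 lower), and for all genes these shares were 50.0% and 74.0%. Under median centring all genes had a median of 0.23 and the solute carriers one of 0.13, so the difference between them was -0.10 in both. Class counts under median centring are given beside each class below, as higher and then lower. They are to be read against the 74.0% of all calls that were higher under that setting, and not against the 30.2% and 30.1% of all genes called with loess.

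**Figure D1:**
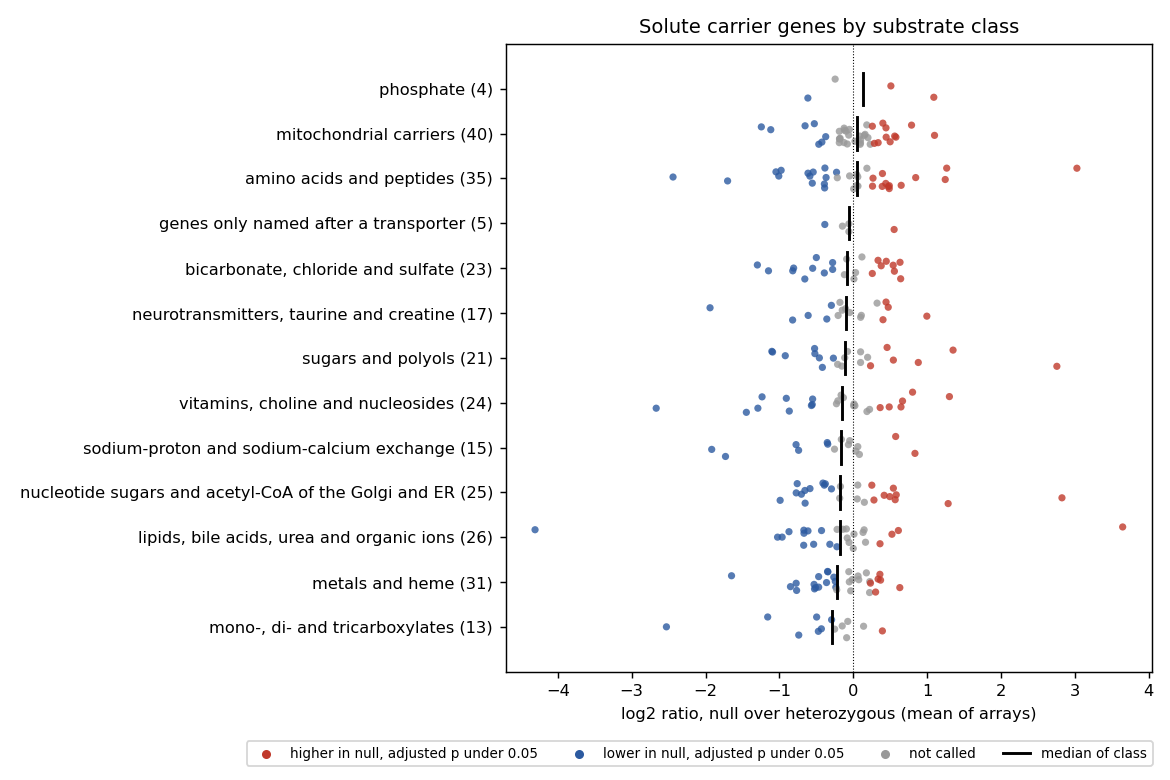
Each point is 1 of the 279 solute carrier genes, placed by its log2 ratio of null over heterozygous (horizontal axis, mean of the arrays) in its substrate class (rows, ordered by class median, number of genes in brackets). Red points were called higher and blue points lower in limma at an adjusted p under 0.05, grey points were not called, and black bars are class medians, which run from -0.29 for carboxylates to 0.13 for phosphate.

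The lowest and the highest ratio both belonged to the class of lipid, bile acid, urea and organic ion carriers. Slco2a1, the prostaglandin transporter, was the lowest, with ratios of -4.43, -4.36 and -4.14 on the arrays of replicates 1, 2 and 3. Its normalized log2 intensity was 13.55, 13.19 and 13.02 in the heterozygous channel and 9.12, 8.84 and 8.88 in the null channel. The channels did not overlap, and the difference was 19.8-fold (-4.31 ± 0.09, adjusted p = 1.1e-07 in limma). Slc27a2, which activates and takes up very long chain fatty acids, was the highest, with ratios of 3.22, 3.75 and 3.97, a 12.5-fold difference (3.65 ± 0.14, adjusted p = 3.3e-07 in limma). Its signal was well above background in both channels on all 3 arrays.

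The promoters of these and of another pair of strongly lowered genes are printed, and whether they bear on the ratios was not tested. The 4 genes were picked by hand together with motifs to show in them, so their matches do not represent the set. Each run is the 250 bases before the annotated transcription start on the gene's own strand, 5′ to 3′, from RefSeq on build GRCm38.p6, with matches to any of the 10 motifs searched in capitals. Slco2a1 lies at chr9:103008237-103008486 on the plus strand and Slc23a3 at chr1:75133891-75134140 on the minus strand. Slc7a9 lies at chr7:35448842-35449091 and Slc27a2 at chr2:126552774-126553023, both on the plus strand. Slc7a9 had 2 starts, and the one printed was picked by its match to the motif to be shown, then by position. Slc23a3 is an ascorbate-transporter relative of unknown substrate, and Slc7a9 carries cystine and dibasic amino acids.
Slco2a1: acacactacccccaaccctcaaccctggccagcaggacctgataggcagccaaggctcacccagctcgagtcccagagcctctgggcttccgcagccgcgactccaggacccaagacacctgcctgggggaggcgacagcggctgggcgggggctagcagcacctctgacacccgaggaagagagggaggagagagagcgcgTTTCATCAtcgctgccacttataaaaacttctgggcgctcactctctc
Slc23a3: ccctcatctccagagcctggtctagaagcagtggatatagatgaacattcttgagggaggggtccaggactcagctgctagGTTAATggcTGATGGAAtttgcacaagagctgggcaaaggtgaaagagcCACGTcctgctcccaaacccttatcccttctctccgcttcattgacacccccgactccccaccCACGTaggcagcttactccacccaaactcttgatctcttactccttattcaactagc
Slc7a9: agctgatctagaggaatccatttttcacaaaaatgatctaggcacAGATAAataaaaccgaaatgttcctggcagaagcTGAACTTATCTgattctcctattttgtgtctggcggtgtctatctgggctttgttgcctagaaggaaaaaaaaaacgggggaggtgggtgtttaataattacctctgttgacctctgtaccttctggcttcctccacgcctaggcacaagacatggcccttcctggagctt
Slc27a2: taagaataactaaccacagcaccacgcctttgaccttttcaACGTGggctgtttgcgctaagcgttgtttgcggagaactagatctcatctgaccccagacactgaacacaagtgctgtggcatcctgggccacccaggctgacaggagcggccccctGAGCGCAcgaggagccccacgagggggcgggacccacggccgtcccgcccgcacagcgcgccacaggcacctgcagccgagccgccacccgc
The capitals in Slco2a1 (TTTCATCA) and the second block in Slc23a3 (TGATGGAA) are matches, on either strand, to TGATGNAA, the core of the composite C/EBP-ATF element of amino acid response genes. The first block in Slc23a3 (GTTAAT) is the HNF1 core, and its last 2 blocks (CACGT) are ACGTG, the hypoxia element core, on the other strand. In Slc7a9 the first block is the GATA motif AGATAA, and the second joins AGTTCA and AGATAA, both on the other strand and sharing a base. In Slc27a2 the first block is ACGTG and the second (GAGCGCA) is TGCGCNC, the metal response core, on the other strand.

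Promoters in the table were found for 213 of the 279 genes, 53 of them higher, 81 lower and 79 not called. Searched on both strands, TGATGNAA stood in 6 of the 213 members and in 3.91% of 27025 genes, so it was not more frequent among the members. The 6 were among the 81 lower genes (Slco2a1, Slc23a3, Slc26a10, Slc49a4, Slc50a1 and Slc7a7), with 0 of the 53 higher and 0 of the 79 not called. It was 1 of 10 motifs searched, and the split was not tested. GTTAAT was in 7 lower, 2 higher and 3 uncalled genes (7.49% of all genes), AGATAA in 10, 5 and 4 (11.4%), and TGCGCNC in 17, 6 and 19 (14.0%). The E-box CACGTG was in 11, 9 and 13 (6.86%), and ACGTG, which CACGTG contains, in 22, 14 and 22 (18.5%). The nuclear receptor sequences AGTTCA and CAAAGTCCA were in 4, 9 and 19 (13.4%) and in 0, 0 and 2 (0.451%). The cyclic AMP element TGACGTCA was in 2, 0 and 1 (1.77%), and the serum response factor sequence known as the CArG box was in none of the 213 (0.074%). The percentages are over all 27025 genes with a promoter, whether or not they were measured here, while the members had passed the background filter. The 2 are unlike sets, and no enrichment was tested. These are letters in a window and not binding measurements.

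**Figure D2:**
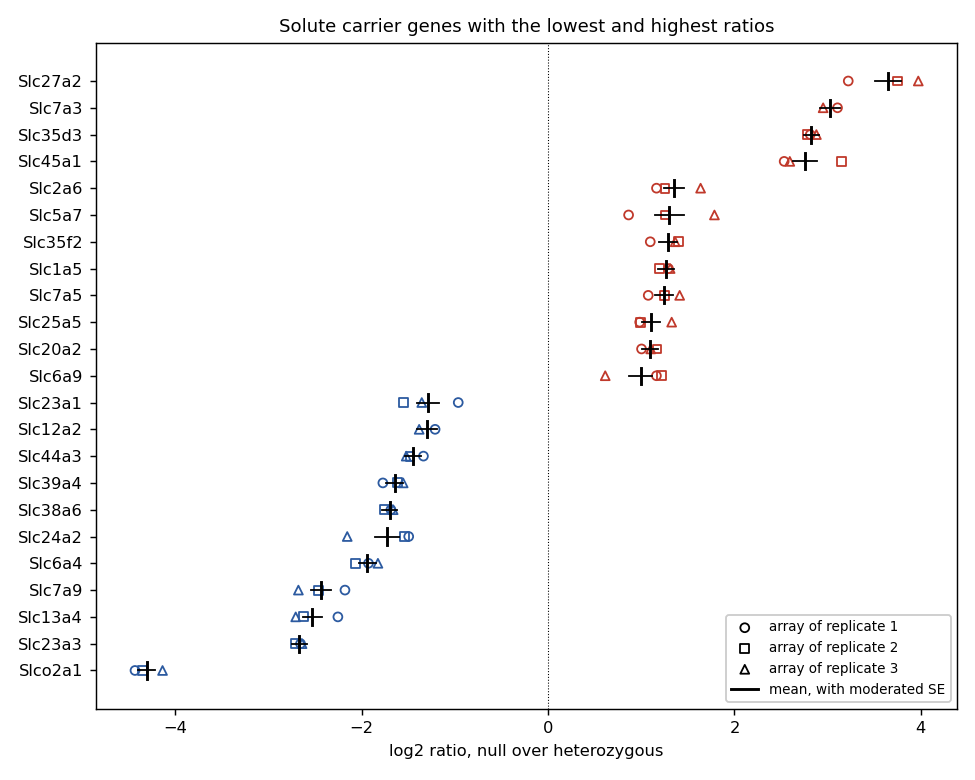
Called solute carrier genes from the 12 lowest and 12 highest are listed by row with the log2 ratio of null over heterozygous on the horizontal axis. Open symbols are the arrays of replicates 1 to 3 (Slc7a3 and Slc12a2 have values on 2 arrays), red for higher and blue for lower calls, and the black bar and line are the mean and its moderated SE. Every symbol lies on the same side of 0 as its mean, from Slco2a1 at -4.31 to Slc27a2 at 3.65.

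Amino acid and peptide transporters split, with 13 of 35 higher, 14 lower and 8 not called (median 0.05; 16 and 7 under median centring). Several carriers that bring neutral and cationic amino acids into growing cells were higher in null. Slc7a5, the large neutral amino acid exchanger LAT1, had ratios of 1.07, 1.25 and 1.41 (1.25 ± 0.09, adjusted p = 1.0e-05 in limma). Slc3a2, the heavy chain that brings it to the membrane, had 0.40, 0.56 and 0.51 (0.49 ± 0.08, adjusted p = 0.0011 in limma). Slc1a5, the neutral amino acid and glutamine exchanger ASCT2, had 1.29, 1.20 and 1.31 (1.27 ± 0.08, adjusted p = 4.7e-06 in limma). Slc7a3, a cationic amino acid transporter, was 8.16-fold higher, from ratios of 3.11 and 2.95, since its spot on the array of replicate 2 had an outlier flag and was left out. Other higher members were Slc43a3 (0.65), Slc7a6 (0.48), an arginine and neutral amino acid exchanger, and the glutamine transporters Slc38a3 (0.49) and Slc38a2 (0.44). The main cationic amino acid transporter of most cells, Slc7a1, had ratios of -0.23, -0.04 and -0.38 and was not called.

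The lower amino acid carriers included epithelial and lysosomal ones. Slc7a9, the light subunit of the cystine and dibasic amino acid exchanger of kidney and gut, had ratios of -2.18, -2.46 and -2.68 (-2.44 ± 0.11, adjusted p = 7.3e-07 in limma). Slc3a1, its heavy chain, had ratios of 0.01, -0.04 and 0.22 and was not called (adjusted p = 0.56 in limma). Slc38a6 was lower by a near constant amount, with -1.69, -1.75 and -1.66. Slc1a6, a glutamate transporter, had a mean of -1.05, Slc43a2, a branched chain and aromatic amino acid transporter, -1.01, and Slc66a2 -0.98. The lysosomal Slc38a9, Slc36a1 and Slc15a4, which serve amino acid sensing and peptide or histidine export, had means of -0.54, -0.37 and -0.61, all called. Slc7a11, the cystine and glutamate exchanger, was not well above background in either channel on any array. Slc7a5 had a second kept probe at 0.24 that was not called (adjusted p = 0.051 in limma), so its size rests on the brighter probe.

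Of 31 metal and heme transporters 6 were higher, 15 lower and 10 not called, with a median of -0.22, but 10 were higher and 7 lower under median centring. Of the 15 lower genes 10 belonged to the Slc39 (ZIP) family, whose members bring zinc into the cytosol. In that family 2 of 13 were higher and 10 lower with loess (median -0.35), and 2 and 5 under median centring, where its median relative to all genes was -0.32. Leaving out replicate 1, 2 or 3 gave 2 higher and 8, 7 or 10 lower, and the deposited table and the ordinary t statistic each gave 0 and 5. Slc39a4, the zinc importer of intestine and visceral endoderm, was bright in both channels, at 14.30, 14.09 and 13.91 in heterozygous and 12.53, 12.47 and 12.35 in null. Its ratios of -1.77, -1.62 and -1.56 gave a 3.13-fold difference (-1.65 ± 0.09, adjusted p = 1.5e-06 in limma). Slc39a8, which takes up zinc and manganese, had -0.72, -0.92 and -0.91 (-0.85 ± 0.09), and Slc39a1 had a mean of -0.77. The Golgi and endoplasmic reticulum members Slc39a13 and Slc39a7, which release zinc from those stores, had means of -0.47 and -0.36. Slc39a9 and Slc39a5 were also called lower (-0.35 and -0.34), but were well above background in null on 1 array each. Their direction thus has no independent support. Requiring both channels above background left 2 higher and 8 lower of 10 Slc39 genes. The 2 higher members were Slc39a6 (0.37) and Slc39a10 (0.36), a related pair of plasma membrane zinc importers.

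The Slc30 (ZnT) family, which moves zinc out of the cytosol, had 8 measured members, of which 1 was higher, 1 lower and 6 not called (4 higher and 0 lower under median centring). Slc30a1, the plasma membrane zinc exporter, had ratios of 0.02, 0.07 and 0.13 and did not pass (adjusted p = 0.46 in limma). The higher member, Slc30a7, had another probe called in the other direction. Slc31a1, the copper importer, had -0.62, -0.85 and -0.85 (-0.77 ± 0.09, adjusted p = 0.00011 in limma), and its relative Slc31a2 a mean of -0.53. The heme transporter Slc48a1 was at -0.01 and not called.

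Iron transporters differed in direction. Slc40a1, the iron exporter ferroportin, had ratios of -0.35, -0.64 and -0.41 (-0.47 ± 0.09, adjusted p = 0.0022 in limma), and under median centring it was at -0.08 and not called. Slc11a2, the ferrous iron importer DMT1, was higher at 0.67, 0.59 and 0.64 (0.63 ± 0.08), while its dimmer probe was at 0.02 and not called. Slc25a37, the mitochondrial iron importer of red cell precursors, had 0.71, 0.19 and 0.30 (0.40 ± 0.11, adjusted p = 0.013 in limma), with replicate 1 well above the others, and without replicate 1 it was not called. Slc25a28, its widely expressed relative, had 0.19, 0.10 and -0.22 and was not called. Among 16 measured genes of iron and zinc handling outside the solute carriers, 10 were higher and 5 lower. They included the transferrin receptor Tfrc (0.81 ± 0.09) and, with the largest absolute ratio, transferrin itself, Trf (-1.34 ± 0.10).

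**Figure D3:**
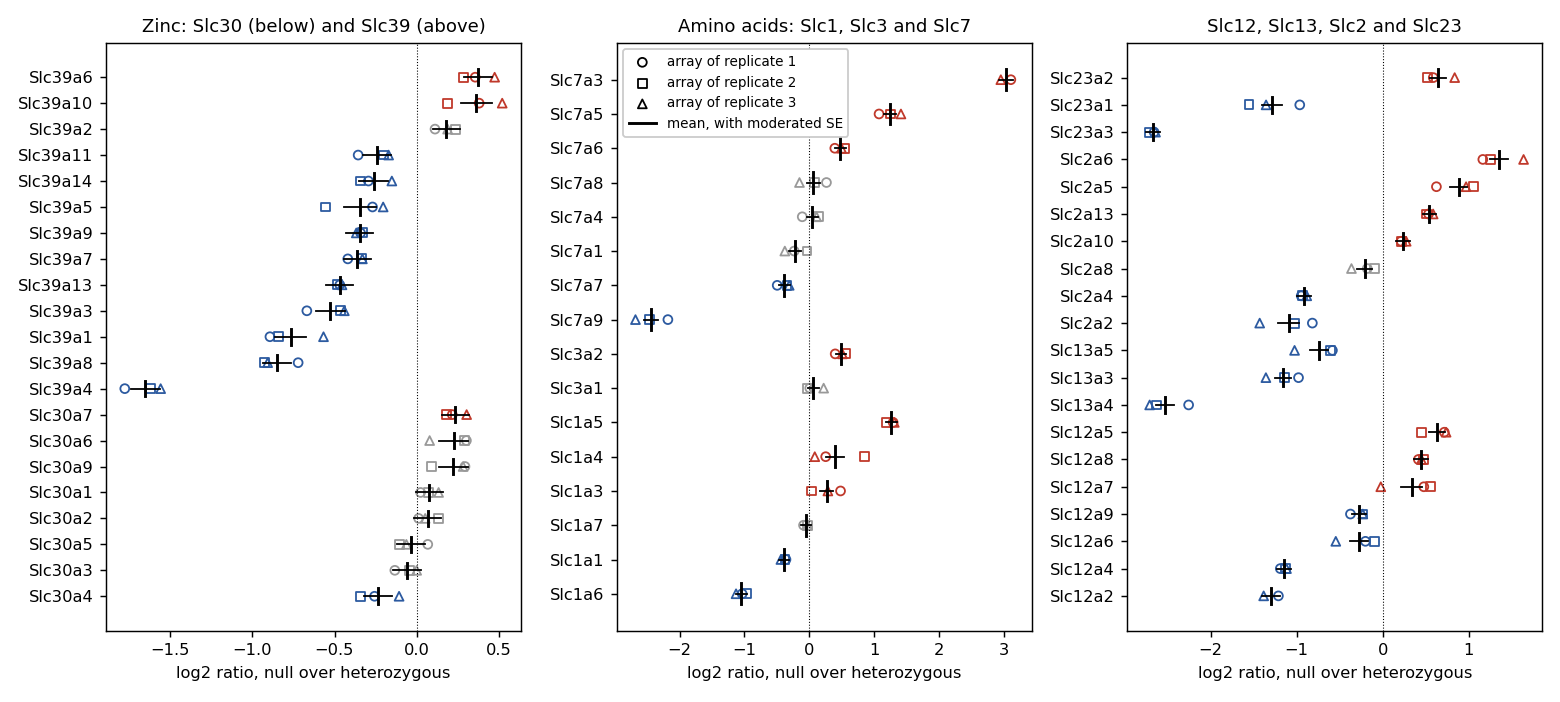
Solute carrier families of zinc (left), amino acids (middle) and cation-chloride, carboxylate and sulfate, sugar and ascorbate transport (right) are shown with 1 gene per row and the log2 ratio of null over heterozygous on the horizontal axis. Open symbols are arrays (red higher, blue lower, grey not called), and black bars and lines are means and moderated SEs. Of the 13 Slc39 genes 10 are blue, while 6 of the 8 Slc30 genes are grey.

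Vitamin, choline and nucleoside carriers held 6 higher, 9 lower and 9 uncalled genes of 24 (median -0.15; 8 and 7 under median centring). The ascorbate family Slc23 was divided, in cultures whose medium contained ascorbic acid in both genotypes. Slc23a1, the epithelial ascorbate transporter, had ratios of -0.96, -1.55 and -1.36 (-1.29 ± 0.12, adjusted p = 2.7e-05 in limma). Slc23a2, the widespread one, had 0.59, 0.52 and 0.84 (0.65 ± 0.09, adjusted p = 0.00041 in limma). Slc23a3 had -2.66, -2.71 and -2.64, a 6.36-fold difference (-2.67 ± 0.08, adjusted p = 1.6e-07 in limma). Of the choline-transporter-like Slc44 genes, Slc44a3 had a mean of -1.45 and Slc44a4 of -1.23. Slc44a5 was higher at 0.67, but it entered the set through the null channel alone, so its direction has no independent support here. The nucleoside carriers also differed: the concentrative Slc28a2 was lower (-0.91) and the equilibrative Slc29a2 and Slc29a4 were higher (0.36 and 0.80). Slc19a2, a thiamine transporter, was lower at -0.56, and Slc46a1, the proton-coupled folate transporter, higher at 0.49. Slc5a7, the high-affinity choline transporter of cholinergic neurons, was well above background in null and not well above background in heterozygous on any array. It was at least 2.42-fold higher (measured ratios 0.86, 1.26 and 1.79, adjusted p = 0.00013 in limma), where the bound sets the null level against the floor of the heterozygous channel. It entered the set through the null channel alone, so that p is no independent support for its direction.

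Lipid, bile acid, urea and organic ion carriers had 4 higher, 12 lower and 10 uncalled genes of 26 (median -0.18; 5 and 8 under median centring). The Slco family had 0 higher and 3 lower of 5 under both normalizations. Of these 5, 1 passed the filter through the heterozygous channel alone, and with both channels required 0 were higher and 2 lower of 4. Beside Slco2a1, Slco4a1, which carries thyroid hormone and prostaglandins, had -0.75, -0.80 and -1.53 (-1.02 ± 0.15, adjusted p = 0.00040 in limma), with replicate 3 lowest. The Slc22 organic ion family had 1 higher and 5 lower of 11, among them Slc22a23 (-0.96) and Slc22a17 (-0.87), and 1 and 4 under median centring. Requiring both channels above background left 0 higher and 5 lower of 10 Slc22 genes. Slc14a1, the urea channel of red cells and kidney, was higher at 0.61, and Slc10a1, the bile acid importer of hepatocytes, was lower at -0.43. In the fatty acid family Slc27, Slc27a2 stood alone, since Slc27a3, Slc27a4 and Slc27a5 were lower (-0.61, -0.22 and -0.67) and Slc27a1 was at 0.00 and not called.

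Mono-, di- and tricarboxylate carriers had 1 higher, 7 lower and 5 uncalled genes of 13, the lowest class median at -0.29 (2 and 5 under median centring). Some of these passed the filter in 1 genotype only. With both channels required above background, 0 were higher and 5 lower of 9, with a median of -0.29. All 3 measured Slc13 genes, sodium-coupled carriers of sulfate and Krebs cycle acids, were lower under both normalizations. Slc13a4, a sulfate transporter, was at 13.86, 13.93 and 14.09 in the heterozygous channel and at 11.60, 11.30 and 11.38 in null (-2.53 ± 0.11, adjusted p = 5.8e-07 in limma). Slc13a3, for dicarboxylates, had -0.98, -1.14 and -1.36, and Slc13a5, for citrate, had -0.59, -0.60 and -1.02. Slc16a1, the lactate and pyruvate carrier MCT1, had ratios of -0.14, -0.10 and -0.51 and was not called (adjusted p = 0.062 in limma). It was called lower without background subtraction, with the processed signals and with a dye term in the fit (adjusted p = 0.012, 0.0067 and 0.0047 in limma). Its membrane partner Bsg (basigin) was lower, with -1.69, -1.66 and -1.13 (-1.50 ± 0.12), as was the related Emb (-1.42 ± 0.08).

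Sugar and polyol carriers had 6 higher, 8 lower and 7 uncalled genes of 21 (median -0.12; 7 and 3 under median centring). Slc45a1, a proton-coupled sugar transporter, had 2.53, 3.14 and 2.59 (2.76 ± 0.12, adjusted p = 8.0e-07 in limma). Slc2a6, a lysosomal member of the glucose transporter family, had 1.16, 1.25 and 1.64 (1.35 ± 0.11). Slc2a5, the fructose transporter, was higher at 0.88, with a heterozygous signal well above background on 2 arrays. Slc2a2, the glucose transporter of liver and endoderm, was lower at -1.09, with a null signal well above background on 2 arrays. Also lower were Slc2a4, the insulin-responsive glucose transporter of muscle and fat, at -0.92, and 2 glucose-6-phosphate and phosphate exchangers, Slc37a1 at -1.10 ± 0.10 and Slc37a4 at -0.52. The inositol carriers were divided, with Slc5a3 at -0.46 and Slc2a13 and Slc5a11 at 0.54 and 0.46, all called. Another Slc5a3 probe of nearly the same brightness was at -1.50, so the size of its difference depends on the probe. Of 7 measured Slc2 genes 4 were higher and 2 lower (3 and 2 under median centring). Slc2a5 and Slc2a2 each passed the filter only through the channel where they were high, so their directions have no independent support. Requiring both channels above background left 3 higher and 1 lower of 5 Slc2 genes.

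Bicarbonate, chloride and sulfate carriers had 8 higher, 10 lower and 5 uncalled genes of 23 (median -0.09; 10 and 4 under median centring). Slc12a2, the sodium-potassium-chloride cotransporter NKCC1, had -1.21 and -1.38 on the arrays of replicates 1 and 3, with an outlier flag on that of replicate 2 (-1.30 ± 0.11, adjusted p = 4.0e-05 in limma). Slc12a4, the potassium-chloride cotransporter KCC1, had -1.19, -1.13 and -1.12 (-1.15 ± 0.08). Slc26a2, a sulfate transporter, had -0.74, -0.91 and -0.80 (-0.82 ± 0.08). Slc12a5, the neuronal potassium-chloride cotransporter, was higher at 0.63, although its dimmer probe was called lower. In the bicarbonate family Slc4, Slc4a5 and Slc4a4 were lower (-0.81 and -0.39) and Slc4a8 and Slc4a11 higher (0.54 and 0.56), with 5 higher and 1 lower under median centring.

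Sodium-proton and sodium-calcium exchangers had 2 higher, 6 lower and 7 uncalled genes of 15 (median -0.16; 4 and 4 under median centring). Slc24a2, a potassium-dependent sodium-calcium exchanger, had -1.50, -1.54 and -2.16, with replicate 3 lowest (-1.73 ± 0.13), and its dimmer probe was called lower at -0.34. Slc24a5, the exchanger of pigment organelles, was higher at 0.84 ± 0.11. Slc9a3, the sodium-proton exchanger of absorptive epithelia, was not well above background in null on any array and was at least 1.71-fold lower (measured mean -0.77). It entered the set through the heterozygous channel alone, so its direction has no independent support here. Of pumps and partner proteins that set up the gradients or carry solute carriers to the membrane, 3 of 18 measured were higher and 11 lower. The largest ratio was that of Atp1b1, a beta subunit of the sodium pump, at -2.96, -2.94 and -2.70 (-2.87 ± 0.09).

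Phosphate carriers had 4 measured genes. Both Slc20 genes, the widespread sodium-phosphate cotransporters, were higher: Slc20a2 had 1.00, 1.17 and 1.10 (1.09 ± 0.08) and Slc20a1 had 0.53, 0.52 and 0.47 (0.51 ± 0.08). Slc34a2, the epithelial one, was not well above background in null on any array and was at least 1.53-fold lower (measured mean -0.61, adjusted p = 0.00033 in limma). It entered the set through the heterozygous channel alone, so that p is no independent support either. The class had 2 higher and 1 lower under median centring too.

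Neurotransmitter, taurine and creatine carriers had 4 higher, 5 lower and 8 uncalled genes of 17 (median -0.10; 5 and 3 under median centring). Slc6a4, the serotonin transporter, had -1.93, -2.06 and -1.83 (-1.94 ± 0.09, adjusted p = 7.9e-07 in limma). Slc6a8, the creatine transporter, had -0.86, -0.68 and -0.92 (-0.82 ± 0.09). Slc6a6, the taurine transporter, had -0.81, -0.78 and -0.24 (-0.61 ± 0.12, adjusted p = 0.0023 in limma), and was at -0.22 and not called under median centring. Slc6a9, the glycine transporter GLYT1, was higher with 1.16, 1.21 and 0.61 (1.00 ± 0.12).

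Of the 40 mitochondrial carriers of family Slc25, 11 were higher, 7 lower and 22 not called, with a median of 0.06 (19 and 3 under median centring, 6 and 7 in the authors' deposited table). Slc25a5, a major ADP/ATP carrier of the inner membrane, had 0.98, 0.99 and 1.33 (1.10 ± 0.10, adjusted p = 2.5e-05 in limma). Slc25a36, for pyrimidine nucleotides, had -1.05, -1.26 and -1.43 (-1.24 ± 0.10), and Slc25a42, for coenzyme A, had -0.93, -1.10 and -1.32 (-1.12 ± 0.10). The glycine carrier Slc25a38, which feeds heme synthesis, was higher at 0.45 ± 0.08, and the phosphate carrier Slc25a3 was at 0.18 and not called. Slc25a29, for basic amino acids, and Slc25a26, for S-adenosylmethionine, were higher (0.58 and 0.56), and Slc25a11, the oxoglutarate and malate exchanger, and the peroxisomal Slc25a17 were lower (-0.42 and -0.53). The aspartate and glutamate exchangers Slc25a12 and Slc25a13 were at -0.06 (not called) and 0.34 (called).

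The nucleotide sugar and acetyl-CoA carriers of the Golgi and endoplasmic reticulum had 9 higher, 11 lower and 5 uncalled genes of 25 (median -0.17; 10 and 6 under median centring). Slc35d3, known from platelet dense granules, had 2.81, 2.79 and 2.88 (2.83 ± 0.08, adjusted p = 1.5e-07 in limma), and Slc35f2, an orphan member, had 1.10, 1.40 and 1.36 (1.29 ± 0.09). Slc35c1, the GDP-fucose transporter, had -1.29, -1.02 and -0.66 (-0.99 ± 0.12). Slc35d1, Slc35a3 and Slc35a2, which supply glycosylation with UDP sugars, were lower at -0.77, -0.65 and -0.59, as were Slc35a1, for CMP-sialic acid (-0.38), and Slc33a1, for acetyl-CoA (-0.41). Slc35b1, which brings ATP into the endoplasmic reticulum, was higher at 0.42. Slc35e1 and Slc35e2, of unknown substrate, each had a second probe called in the opposite direction. A further 5 members carry an Slc symbol without being transporters: the scaffold Slc9a3r2 was lower (-0.39 ± 0.08, not called under median centring), the transcribed pseudogene Slc2a4rg-ps was higher (0.55 ± 0.10), and Slc9a3r1, Slc7a6os and Slc4a1ap were not called. Without these 5, 72 of 274 genes were higher and 105 lower.

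**Figure D4:**
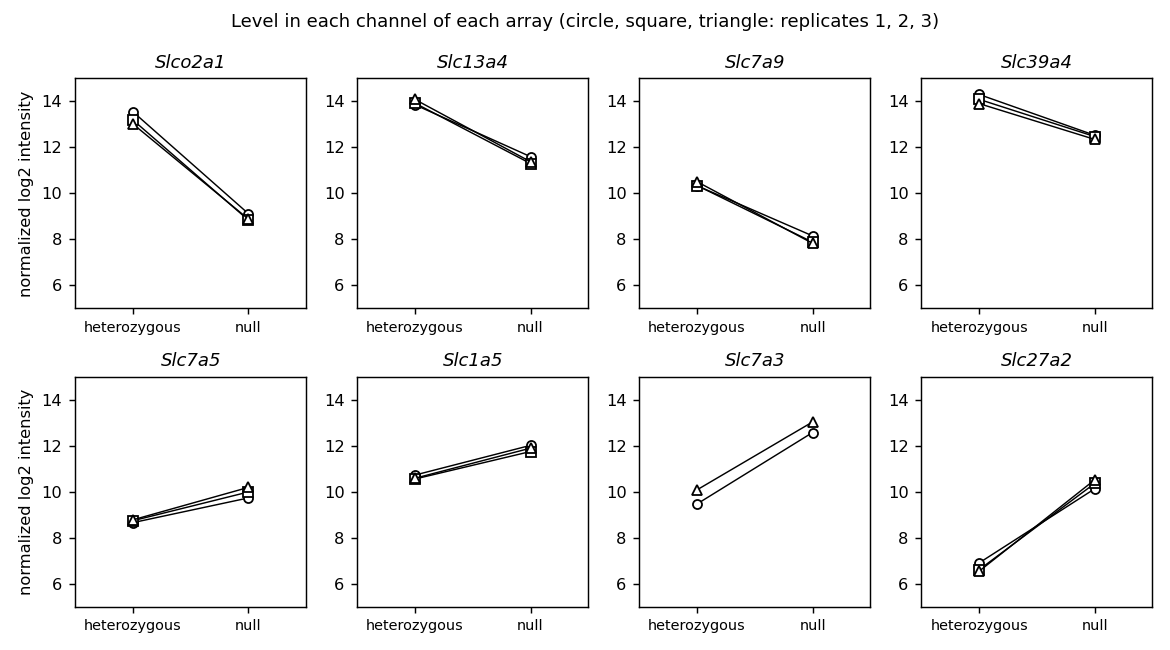
The normalized log2 intensity (vertical axis) of 8 solute carrier genes is shown in the heterozygous and null channels, with a line joining the channels of each array and circles, squares and triangles for replicates 1, 2 and 3. In each panel the null points lie wholly below (Slco2a1, Slc13a4, Slc7a9, Slc39a4) or wholly above (Slc7a5, Slc1a5, Slc7a3, Slc27a2) the heterozygous points, and levels are not comparable between panels because each gene has its own probe.

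Carriers that bear other symbols were mixed: of 32 measured, 10 were higher and 8 lower, and the largest ratio was that of Flvcr2, a heme and choline transporter relative, at -1.82, -2.01 and -2.30 (-2.04 ± 0.11). The dim genes were unevenly spread over classes: of the 102 that were not in the set, 32 were lipid, bile acid, urea and organic ion carriers, 16 amino acid carriers and 11 neurotransmitter carriers, and 6 were mitochondrial carriers. Of the 279 members, 52 had several kept probes, and 33 of these were called at the brightest. In 4 of the 33 (Slc12a5, Slc30a7, Slc35e1 and Slc35e2) the probes disagreed in direction, with a dimmer one called against the brightest. Some members not called at the brightest probe had a dimmer probe called, so their lack of a call depends on the probe. Called lower there were Slc17a5 (-1.17), Slc44a1 (-0.75 and -0.52), Slc35f6 (-0.66), Slc4a7 (-0.52) and Slc38a1 (-0.30). Called higher there were Slc25a33 (0.39) and Slc4a3 (0.26).

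Markers of several cell types also differed between the genotypes. All 10 cardiomyocyte markers were lower in null (median -2.48), with a summed signal of 23569 to 33335 in null and 215558 to 267861 in heterozygous over the arrays, and of these Tnni3 was well above background in null on 2 arrays. All 10 visceral endoderm markers were lower (median -2.75), with sums of 16078 to 22032 and 121217 to 146710. All 10 primitive erythroid markers were higher (median 1.95), with sums of 151618 to 198048 and 41707 to 70113. Higher too were 7 of 8 endothelial markers (sums of 8104 to 9964 and 3727 to 4856), 7 of 7 measured neuroectoderm markers (12571 to 14676 and 2362 to 2780), 7 of 8 pluripotency and epiblast markers (59478 to 73572 and 13966 to 16300) and 6 of 8 fibroblast markers, which the feeder cells could also supply (50903 to 74229 and 21660 to 36939). In each of the 7 lists the ranges of the sums in null and heterozygous did not overlap. The same held for the lists of pumps and partners and of iron and zinc handling, but not for carriers with other symbols. How often the sums of any other gene list stay apart was not counted, and 60.3% of all genes were called. The lack of overlap is therefore not read as particular to these lists. Sums leave out a gene on an array where it was flagged (Tnnt2, Col1a1 and Postn), and bright genes weigh most in them. The part of these cell types in the ratio of any solute carrier gene, such as the visceral endoderm gene Slc39a4, the heart and muscle gene Slc2a4 or the erythroid gene Slc25a37, was not tested.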

How the data were processed

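RNA of null and heterozygous embryoid bodies was hybridized in pairs to 3 two-colour Agilent arrays (39429 probes, 43020 non-control spots) from 200 ng of total RNA. Per the file headers, the deposited spot intensity values, with backgrounds and flags, are output of Agilent Feature Extraction 11.5.1.1 (8.5.1.1 in the submitters' processing notes). The authors also deposited a value table, read here as log2 ratios with replicate 3 turned although no scale is stated, from its slopes on the scanner ratios (column medians -0.10, -0.11 and 0.07), and how it was centred is not known. Log10 ratios that Feature Extraction wrote, per the file headers, were left aside. All arrays shared 1 slide and 1 scan day.

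With limma 3.58.1 in R 4.3.3, foreground and background medians were corrected by normexp (offset 50), ratios normalized by loess with control and outlier spots at weight 0, spots of a probe averaged, and the ratios of replicate 3 turned. This leaves 2 arrays of one dye orientation and 1 of the other, so a dye effect does not fully cancel. Probes were kept if 1 genotype was well above background on all 3 arrays (24574), with values on at least 2. Ratios were tested against 0 with lmFit and eBayes, adjusted by Benjamini-Hochberg over the kept probes, and called at 0.05. A gene is its brightest kept probe. Names came from unversioned RefSeq accessions (28025 probes, 71.1%). "At least" folds set the bright channel's mean against the higher of the dim probe's own signal and the lowest signal well above background.

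Members, classes, marker lists, related lists, motifs and tests were chosen with earlier results of these data known, and 3 genes were moved after their values were seen into the class of genes only named after a transporter. Named genes were the 12 highest and 12 lowest called members, the 3 called with the largest ratio in each class, and a list of common carriers (49 in all, with some genes of that rule not reported here). Other genes in the text were chosen after their values were seen. The test script was tested on simulated data.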

Additional observations from a re-analysis of the deposited data

How the results depend on the processing

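Among the solute carriers, 33 genes were called with at least a 2-fold change, and all of them with a value kept their call and direction under every alternative run except the ordinary t statistic (21 kept), the channels as separate samples (32) and replicate 3 as labelled (0). The deposited table gave 45 higher and 73 lower members, and the count of all genes higher in null was 3910. With median centring 100 members were higher and 58 lower, and the count of all genes lower in null was 3008. The ordinary t statistic called 23 members higher and 44 lower, and 1964 and 2034 of all genes. Requiring a 2-fold change left 11 and 22 members, and 964 and 1194 of all genes. With replicate 3 as labelled 0 were higher and 0 lower in limma, for the solute carriers as for all genes (61 of which had an unadjusted p under 0.05), and the members' median was -0.017. The members' median was -0.15 with the scanner's processed signals, 0.13 with median centring and -0.032 without the filter on dim probes. Leaving out each replicate gave 60 to 71 higher, 94 to 106 lower and medians from -0.098 to -0.072. For single genes, Slc12a2 turned to 0.085 with replicate 3 as labelled. Calls were lost for Slc25a37 and Slc34a2 in the deposited table, for Slc25a37 with the processed signals, for Slc9a3r2 with the mean of probes, and for Slc12a2, Slc25a37 and Slc9a3r2 with the channels as separate samples. Since a ratio within an array pairs the genotypes by replicate, the fit with no replicate block used the channels as separate samples and called 53 higher and 79 lower. No main call was called in the opposite direction under any alternative run. The cause of these shifts was not tested. Signals near background limit the ratios of the dimmest genes, and 3 arrays limit the precision.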
